A study of Mus musculus with 48 samples.

Results

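Transcripts of 10 genes of the Notch pathway were followed in lymphatic and blood endothelium and in cardiomyocytes of mice. They comprise the receptors Notch1, Notch2, Notch3 and Notch4, the ligands Dll1, Dll4, Jag1 and Jag2, and the target genes Hey1 and Hes1. They were taken by symbol from a matrix of 54752 Ensembl genes, in which each of the 10 has 1 row. The animals were male mice of the strain C57BL/6 (C57BL/6J in the methods of the study) that carried the Prox1-eGFP knock-in, in which eGFP is expressed from the locus of Prox1, the transcription factor of lymphatic identity. From heart and diaphragm, lymphatic endothelial cells (LECs) were sorted as live CD31-positive, CD45.2-negative and eGFP-positive cells, and blood endothelial cells (BECs) of the heart as the eGFP-negative cells of the same gate. Cardiomyocytes were pelleted from the digested heart at low speed, with no sort. Each of the 4 populations had 12 libraries, 4 from control mice (ctrl) whose osmotic minipump held bovine serum albumin, 5 from mice infused with angiotensin II (angII, also with albumin) and 3 from mice infused with angiotensin II and VEGFCc156s (angII+VEGFC). VEGFCc156s is a mutant of the lymphatic growth factor VEGFC that in vitro activates the receptor VEGFR3 and not VEGFR2. Tissue was collected 5 to 6 weeks after the pump was implanted, and the labels give ages of 8 to 16 months.

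Notch receptors are activated by ligands on neighbouring cells. Cleavage by ADAM proteases and then by gamma-secretase frees the intracellular part of the receptor, which joins the DNA-binding protein RBPJ in the nucleus and switches on genes of the Hes and Hey families. In blood vessels the pathway is known for the choice between tip and stalk cells and for arterial identity, and in lymphatic vessels it takes part in sprouting and in valve formation.

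The values are in TPM, an abundance corrected for transcript length and scaled to the same total in every library, so levels can be compared between genes. TPM keeps no read count, and the depth of the libraries is unknown. The libraries listed 12924 to 25896 genes at 1 TPM or more. The labels of the populations were checked with marker genes. The summed level of 7 lymphatic markers (Prox1, Lyve1, Flt4, Pdpn, Ccl21a, Reln and Mmrn1) was 18170 to 32107 TPM in heart LECs and 22654 to 43488 TPM in diaphragm LECs, against 216 to 708 TPM in heart BECs. The 7 blood endothelial markers (Nos3, Emcn, Flt1, Cd36, Fabp4, Ly6c1 and Aqp1) summed to 16513 to 26913 TPM in heart BECs, 1985 to 10069 TPM in heart LECs and 771 to 2099 TPM in diaphragm LECs, and all 7 were at 1 TPM or more in every library. The 6 cardiomyocyte markers (Myh6, Actc1, Tnnt2, Tnni3, Myl2 and Ryr2) summed to 7696 to 20275 TPM in cardiomyocytes, in which the 7 blood endothelial markers also summed to 2523 to 4228 TPM and the 10 markers of pericytes and smooth muscle to 1302 to 2717 TPM. The endothelial libraries were sequenced in 2 sets, called batch 1 and batch 2, and all cardiomyocyte libraries in a separate set.

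The genes lie apart in the mouse genome (GRCm38). Notch1, Dll4 and Jag1 are on chromosome 2, Notch2 and Hey1 on chromosome 3, Notch3, Notch4 and Dll1 on chromosome 17, Jag2 on chromosome 12 and Hes1 on chromosome 16. Notch4 spans chr17:34564268-34588503 and Dll4 chr2:119325784-119335962 on the plus strand, Jag2 spans chr12:112907819-112929776 on the minus strand, and Hes1 spans chr16:30064384-30067796 on the plus strand. The bases in front of Notch4 and Dll4 are shown because Notch4 differed most between the endothelial populations and Dll4 was the most abundant ligand in each population. They were read 5′ to 3′ on the coding strand, which is the plus strand for both, from RefSeq on the GRCm38.p6 build, at chr17:34564045-34564267 for Notch4 and chr2:119325534-119325783 for Dll4. Both stretches end at the base before the annotated gene, and capitals mark each match to CNGGAA, the core letters bound by ETS factors, read on both strands.
Notch4: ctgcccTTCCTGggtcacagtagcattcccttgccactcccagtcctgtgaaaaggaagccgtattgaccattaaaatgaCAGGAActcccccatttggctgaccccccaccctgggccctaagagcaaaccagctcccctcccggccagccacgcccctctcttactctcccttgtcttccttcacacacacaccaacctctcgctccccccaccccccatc
Dll4: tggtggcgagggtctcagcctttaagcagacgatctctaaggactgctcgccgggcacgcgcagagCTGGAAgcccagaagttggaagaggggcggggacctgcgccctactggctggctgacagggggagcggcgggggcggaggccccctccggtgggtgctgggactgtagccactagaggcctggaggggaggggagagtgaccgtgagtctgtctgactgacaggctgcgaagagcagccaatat
Promoter windows of 250 bases were at hand for 8 of the 10 genes, 9 windows in all because Dll1 has a pair. The target genes Hey1 and Hes1 had no window and were not searched. CNGGAA was present in 4 of the 9 windows, against 54.2% of 32851 mouse promoter windows of the same length. GTGGGAA, the letters preferred by RBPJ, was present in 0 of the 9 windows and in 5.42% of all windows. TGANTCA, the AP-1 letters, was present in 1 of the 9, in front of Dll1, and in 6.75% of all. These are matches of letters and no measure of binding.

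Levels differed widely among the members. Hes1 (ENSMUSG00000022528), a transcriptional repressor and immediate target of the pathway, had the highest median in each of the 4 populations. Heart LECs had a median of 943 TPM (470 to 1354 over 12 libraries), diaphragm LECs of 662 TPM (402 to 1220), heart BECs of 386 TPM (240 to 549) and cardiomyocytes of 105 TPM (50.8 to 161). Hey1 (ENSMUSG00000040289), a repressor of the related Hey family, had medians of 139 TPM (96.0 to 206), 109 TPM (66.8 to 152), 132 TPM (103 to 158) and 30.7 TPM (19.8 to 42.3) in that order of populations. The ranges of Hey1 overlapped among the 3 endothelial populations and lay above that of cardiomyocytes. How many of all genes have ranges without overlap between populations was not counted, here and for the members below.

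Among the ligands, Dll4 (ENSMUSG00000027314), the Delta ligand of tip cells and arteries, was highest. Heart BECs had the highest median, 260 TPM (204 to 339), followed by diaphragm LECs with 203 TPM (147 to 280), heart LECs with 139 TPM (97.4 to 215) and cardiomyocytes with 39.9 TPM (22.6 to 55.3). Dll1 (ENSMUSG00000014773), another Delta ligand, had medians, with heart LECs first, then diaphragm LECs, heart BECs and cardiomyocytes, of 47.2 TPM (23.8 to 64.9), 34.5 TPM (20.8 to 57.8), 69.2 TPM (45.6 to 84.9) and 11.2 TPM (8.22 to 13.9). Both Delta ligands were thus lowest in cardiomyocytes, with no overlap with an endothelial population. Jag1 (ENSMUSG00000027276), a Jagged ligand that can oppose Dll4 in sprouting vessels, had medians in that order of 12.3 TPM (4.16 to 18.3), 10.5 TPM (5.45 to 17.1), 18.7 TPM (11.9 to 27.5) and 5.73 TPM (2.44 to 11.6). Jag2 (ENSMUSG00000002799), the other Jagged ligand, had a median of 59.3 TPM in heart BECs (34 to 87.9), against 11.2 TPM in heart LECs (3.85 to 20.2), 10.5 TPM in cardiomyocytes (6.49 to 14.4) and 4.80 TPM in diaphragm LECs (2.51 to 11.4). Every heart BEC library was above every library of the other 3 populations for Jag2, and the other 3 overlapped.

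Among the receptors, Notch1 (ENSMUSG00000026923), the main receptor of endothelium, had medians of 72.6 TPM in heart BECs (44.5 to 83.0), 55.3 TPM in heart LECs (32.7 to 68.1), 55.2 TPM in diaphragm LECs (39.5 to 80.9) and 8.68 TPM in cardiomyocytes (3.73 to 11.1). Notch4 (ENSMUSG00000015468), a receptor largely restricted to endothelium, had medians, with heart LECs first, then diaphragm LECs, heart BECs and cardiomyocytes, of 10.8 TPM (1.28 to 42.0), 2.98 TPM (0.511 to 8.44), 70.2 TPM (44.3 to 125) and 9.98 TPM (4.66 to 13.6). Notch4 therefore resembled Jag2, with every heart BEC library above all libraries of the other populations. Notch2 (ENSMUSG00000027878), a broadly expressed receptor, was low, with medians in that order of 6.42 TPM (2.20 to 14.2), 6.14 TPM (3.32 to 12.7), 2.66 TPM (1.30 to 4.38) and 2.25 TPM (1.46 to 5.04). Notch3 (ENSMUSG00000038146), the receptor of pericytes and vascular smooth muscle, was the lowest receptor in both LEC populations, with medians of 1.27 TPM (0 to 7.31) and 0.479 TPM (0.0483 to 4.23), against 5.97 TPM in heart BECs (2.68 to 15.6) and 6.23 TPM in cardiomyocytes (2.92 to 11.8).

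**Figure D1:**
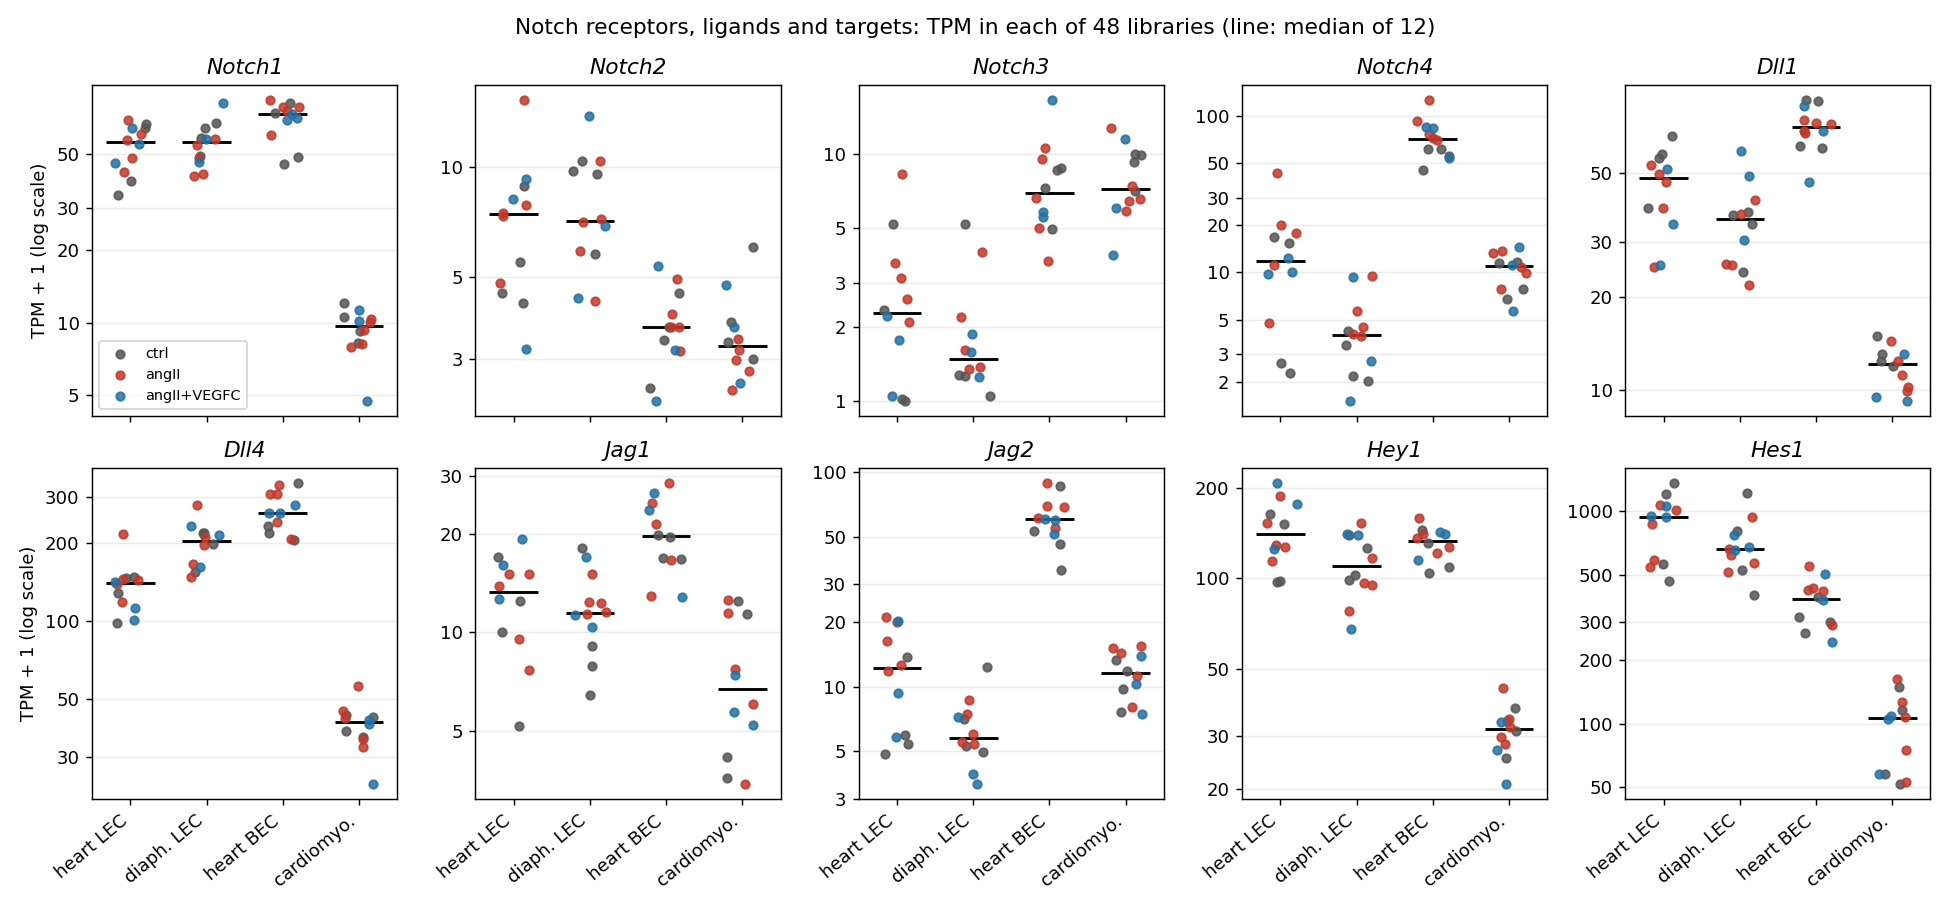
Each point is a library, by population on the horizontal axis and with TPM + 1 on a logarithmic vertical axis, coloured by treatment, and the line is the median of 12 libraries. The heart BEC libraries of Notch4 (44.3 to 125 TPM) and Jag2 (34 to 87.9 TPM) stand above all others, and the cardiomyocyte libraries of Notch1, Dll1, Dll4, Hey1 and Hes1 stand below all others.

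The make-up of the receptors differed by population. Of the summed TPM of the 4 receptors, Notch1 made up 82.6% ± 4.89 in diaphragm LECs, 72.4% ± 11.2 in heart LECs, 46.1% ± 6.17 in heart BECs and 30.7% ± 3.24 in cardiomyocytes (SD, n = 12 each). Notch4 made up 5.42% ± 4.26, 16.5% ± 11.1, 47.6% ± 5.84 and 34.5% ± 6.74 in the same order (SD, n = 12 each). In heart BECs Notch1 and Notch4 were thus present at about the same level, whereas in both LEC populations Notch1 exceeded Notch4 in every library. Cardiomyocyte libraries had the largest share of Notch3, 25.6% ± 5.73, against 1.66% ± 2.19 to 4.44% ± 1.94 in the endothelial populations (SD, n = 12 each). The 4 receptors summed to 151 ± 30.8 TPM in heart BECs, 73.7 ± 16.3 TPM in heart LECs, 66.0 ± 12.9 TPM in diaphragm LECs and 27.3 ± 6.52 TPM in cardiomyocytes (SD, n = 12 each). For the ligands, Dll4 was the largest in every library. It made up 79.6% ± 4.66 of the 4 ligands in diaphragm LECs, 66.6% ± 4.57 in heart LECs, 63.9% ± 3.39 in heart BECs and 58.1% ± 4.14 in cardiomyocytes (SD, n = 12 each). Jag2 made up 2.21% ± 0.903 in diaphragm LECs and 14.5% ± 2.46 in heart BECs (SD, n = 12 each), and these ranges did not overlap (0.913% to 4.22% and 10.7% to 19.1%).

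**Figure D2:**
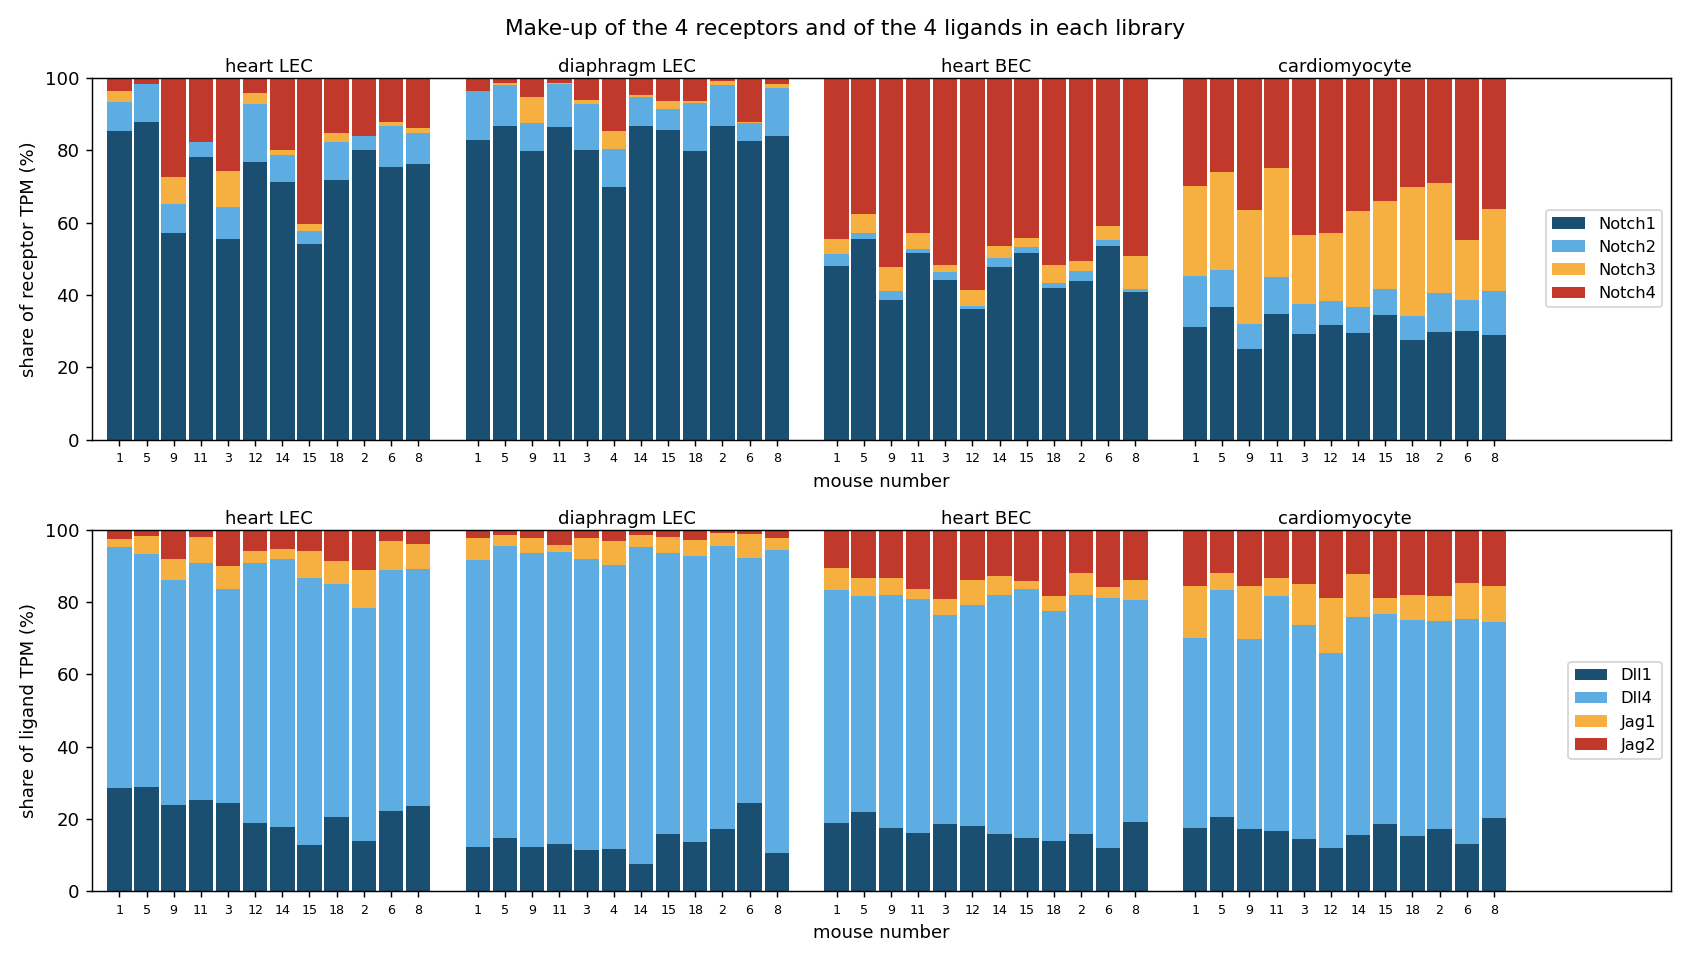
Each bar is a library, labelled by the number of its mouse, and the colours give the percentage of the summed TPM of the 4 receptors (top) or the 4 ligands (bottom). Notch1 makes up 54.0% to 87.7% of the receptors in heart LECs and 36% to 55.5% in heart BECs, and Dll4 is the largest part of every ligand bar.

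The first comparison asked how the pathway differs between the lymphatic and blood endothelium of the same hearts. Notch4 and Jag2 were much lower in heart LECs, Notch3, Dll4, Dll1, Jag1 and Notch1 were lower to a smaller degree, and Hes1 and Notch2 were higher. Differences were estimated on log2(TPM + 1) with limma over the 36 endothelial libraries, averaged over the 3 treatments and adjusted over 32754 genes by the Benjamini-Hochberg method. Since 1 TPM is added, a difference of a gene with few TPM is smaller than its ratio of TPM. Of the 10 members, 2 were called higher and 7 lower at an adjusted p under 0.05, with a background of 8.94% of all genes called higher and 8.64% lower. The members' median difference was -0.67, and that of all genes tested was 0.15. With quantile normalization the calls over all genes moved from 2929 higher and 2831 lower to 2306 higher and 3380 lower. In bulk libraries a lower value can come from fewer cells that express a gene or from less RNA in each cell, which cannot be told apart.

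Notch4 was lower in heart LECs than in heart BECs in 12 of 12 mice, with 12.8 ± 10.9 TPM against 72.8 ± 21.8 TPM (SD, n = 12 each), a log2 difference of -2.80 (SE 0.33, adjusted p = 4.03e-08 in limma). Jag2 was lower in 12 of 12 mice, at 11.3 ± 6.13 TPM against 60.4 ± 15.5 TPM (SD, n = 12 each), with a log2 difference of -2.50 (SE 0.20, adjusted p = 9.84e-12 in limma). By mean TPM, heart BECs exceeded heart LECs 5.67-fold for Notch4 and 5.35-fold for Jag2. The differences of Notch4 were -2.77 in batch 1 and -2.71 in batch 2, and those of Jag2 were -2.48 and -2.70. Notch3 was lower by a log2 difference of -1.74 (SE 0.32, adjusted p = 8.68e-05 in limma), in 11 of 12 mice, with -1.10 in batch 1 (adjusted p = 0.36) and -2.31 in batch 2 (adjusted p = 8.2e-05). The 10 pericyte and smooth muscle markers summed to 190 to 525 TPM in heart BECs and to 49.97 to 946 TPM in heart LECs, and the heart LEC library with the highest Notch3, 7.31 TPM in mouse 3, also had the highest marker sum. Their part in the levels of Notch3 was not tested. Dll4 was lower in 12 of 12 mice, by a log2 difference of -1.0 (SE 0.11, adjusted p = 7.87e-09 in limma), and Dll1 in 12 of 12, by -0.69 (SE 0.15, adjusted p = 6.64e-04 in limma). Jag1 and Notch1 differed less, by -0.65 (SE 0.20, adjusted p = 0.019) and -0.38 (SE 0.12, adjusted p = 0.022), and either call was lost without a single library: Jag1 without the heart BEC library of mouse 2 (-0.58, adjusted p = 0.058), and Notch1 without the heart LEC library of mouse 2 (-0.33, adjusted p = 0.068) or the heart BEC library of mouse 6 (-0.36, adjusted p = 0.053). Of 10 alternatives other than leaving out a single library, the call was lost in 0 for Dll4, 2 for Dll1, 4 for Jag1 and 3 for Notch1.

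Of the 2 genes that were higher in heart LECs, Hes1 was higher in 11 of 12 mice, at 886 ± 286 TPM against 377 ± 95.9 TPM (SD, n = 12 each), with a log2 difference of 1.24 (SE 0.17, adjusted p = 1.00e-06 in limma), 1.02 in batch 1 and 1.61 in batch 2. Notch2 was higher in 11 of 12 mice, at 6.21 ± 3.21 TPM against 2.69 ± 0.919 TPM (SD, n = 12 each), by 0.87 on the log2 scale (SE 0.23, adjusted p = 0.0066 in limma). With quantile normalization Notch2 was at 0.50 (adjusted p = 0.22) and no longer called. Hey1 gave 0.13 (95% interval -0.13 to 0.40). The target genes thus differed from the ligands and from 3 of the receptors in direction or size, with Hes1 above and Hey1 within its error of the heart BEC level.

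The heart LEC libraries of mice 14 and 15, both of the angII group, had the highest sums of blood endothelial markers, and mouse 15 had the highest Notch4 of any LEC library, 42.0 TPM. With both left out, the differences were -3.00 for Notch4 and -2.45 for Jag2, and 9 members were again called.

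For diaphragm LECs the differences from heart BECs had the same sign as for heart LECs in 9 members, Hey1 being the exception, and those of Notch4 and Jag2 were again the farthest from 0. Of the 10 members, 2 were called higher and 6 lower, with a background of 7.54% of all genes higher and 9.01% lower. Notch4 was at 3.42 ± 2.61 TPM in diaphragm LECs (SD, n = 12), 21.3-fold below heart BECs by mean TPM, with a log2 difference of -4.24 (SE 0.33, adjusted p = 2.04e-12 in limma). Jag2 was at 5.45 ± 2.39 TPM (SD, n = 12), 11.1-fold below, with a log2 difference of -3.29 (SE 0.20, adjusted p = 5.05e-15 in limma). Both were lower in 11 of 11 mice with libraries of both populations. Notch3 gave -2.07 (SE 0.32), Dll1 -0.99 (SE 0.15), Jag1 -0.76 (SE 0.20) and Dll4 -0.40 (SE 0.11), with adjusted p-values of 4.45e-06, 2.36e-06, 0.0046 and 0.0069 in limma. Notch2 was higher by 1.08 (SE 0.23, adjusted p = 6.37e-04) and Hes1 by 0.88 (SE 0.17, adjusted p = 1.93e-04), each in 11 of 11 mice. Of 9 alternatives other than leaving out a library, Jag1 and Dll4 each lost the call in 2, and Notch3 and Notch2 each in 1. Notch4, Jag2, Dll1 and Hes1 kept theirs in all 9. Notch1 gave -0.31 (SE 0.12, adjusted p = 0.083), and -0.27 (adjusted p = 0.039) with the mouse as a block, which changed its call, and it was also called without the diaphragm LEC library of mouse 8 (-0.36, adjusted p = 0.044). Hey1 gave -0.23 (95% interval -0.49 to 0.04). Both LEC comparisons share the heart BEC libraries, and for diaphragm LECs the cell type and the digested organ cannot be told apart.

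**Figure D3:**
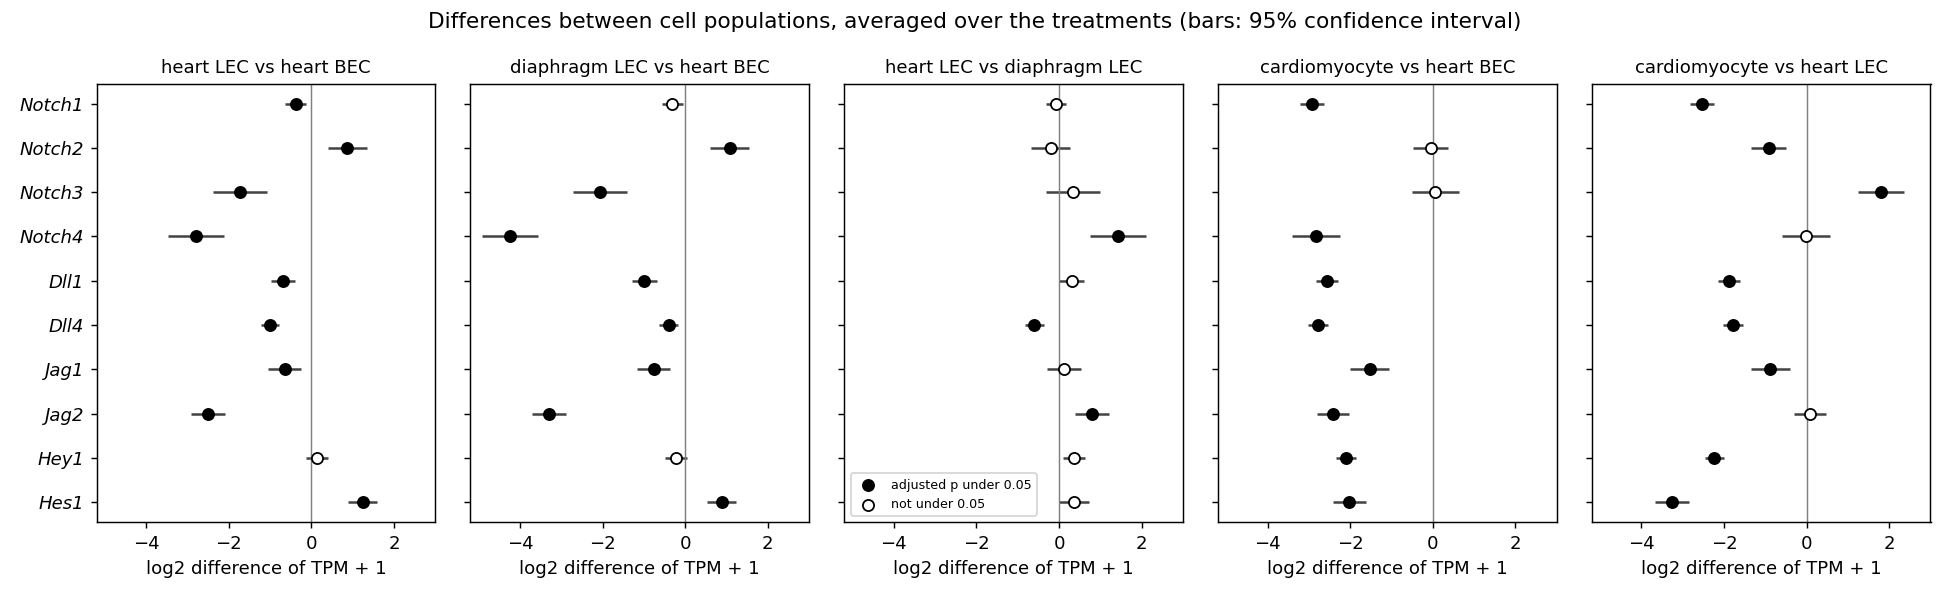
Points are log2 differences of TPM + 1 between populations, averaged over the treatments, with 95% confidence intervals, and filled points have an adjusted p under 0.05 in limma. Notch4 (-2.80 and -4.24) and Jag2 (-2.50 and -3.29) lie farthest below 0 in both LEC populations against heart BECs, while Hes1 (1.24 and 0.88) and Notch2 (0.87 and 1.08) lie above 0.

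Between the lymphatic endothelium of the 2 organs, Notch4 and Jag2 were higher and Dll4 was lower in heart LECs, and 7 members were not called. The background was 2.67% of all genes higher and 1.88% lower, that is 875 and 617 genes, which became 605 and 735 with quantile normalization. Dll4 was lower in the heart LECs of 11 of 11 mice, at 136 ± 30.7 TPM against 199 ± 38.4 TPM (SD, n = 12 each), with a log2 difference of -0.60 (SE 0.11, adjusted p = 4.31e-04 in limma), -0.58 in batch 1 (adjusted p = 0.31) and -0.62 in batch 2 (adjusted p = 0.0023). Notch4 was higher in 10 of 11 mice, by 1.44 (SE 0.33, adjusted p = 0.0061), with 0.65 in batch 1 (adjusted p = 0.71) and 2.03 in batch 2 (adjusted p = 0.0061). The blood endothelial marker sum was also higher in heart LECs (1985 to 10069 TPM against 771 to 2099 TPM), and its part in the difference of Notch4 was not tested. Without mice 14 and 15 in heart LECs the difference of Notch4 was 1.24 (adjusted p = 0.022). Jag2 was higher in 8 of 11 mice, by 0.79 (SE 0.20, adjusted p = 0.016), and this call was lost with quantile normalization (0.66, adjusted p = 0.097) and without the heart LEC library of mouse 2 (0.66, adjusted p = 0.060) or the diaphragm LEC library of mouse 2 (0.68, adjusted p = 0.069). In the ctrl group alone Jag2 averaged 6.499 ± 4.22 TPM in heart LECs and 6.43 ± 3.44 TPM in diaphragm LECs (SD, n = 4 each), a log2 difference of -0.024, whereas in the angII group it averaged 15.4 ± 4.22 TPM and 5.62 ± 1.399 TPM (SD, n = 5 each). Notch4 (1.15, adjusted p = 0.31) and Dll4 (-0.61, adjusted p = 0.081) kept their direction in the ctrl group alone and were not called there.

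Hes1 and Jag1 were not called between the LECs of the 2 organs over all libraries, with log2 differences of 0.36 (SE 0.17, adjusted p = 0.28) and 0.12 (SE 0.20, adjusted p = 0.81), but their order differed by batch. In batch 1 Hes1 averaged 686 ± 230 TPM in heart LECs and 838 ± 219 TPM in diaphragm LECs (SD, n = 6 each), a difference of -0.21 (adjusted p = 0.72). In batch 2 it averaged 1086 ± 176 TPM and 558 ± 101 TPM (SD, n = 6 each), a difference of 0.96 (adjusted p = 6.56e-05 in limma). Jag1 followed the same order, with -0.52 in batch 1 (adjusted p = 0.61) and 0.68 in batch 2 (adjusted p = 0.044). In heart BECs Hes1 averaged 391.97 ± 106 TPM in batch 1 and 361 ± 92.2 TPM in batch 2 (SD, n = 6 each). Cardiomyocytes were all sequenced in another set, and grouped by the batch of the endothelial libraries of the same mouse, Hes1 averaged 126 ± 23.4 TPM in mice of batch 1 and 66.1 ± 21.7 TPM in mice of batch 2 (SD, n = 6 each). Jag1 in cardiomyocytes ranged from 6.41 to 11.6 TPM in mice of batch 1 and from 2.44 to 5.04 TPM in mice of batch 2, without overlap. This split was noticed in the data, and no test of it was made. How many of all genes split by batch in this way was not counted. Across the 12 libraries of a population, Spearman's rho between Jag1 and Hes1 was 0.88 for cardiomyocytes, 0.73 for heart BECs, 0.66 for heart LECs and 0.38 for diaphragm LECs, over libraries that differ in batch and treatment.

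**Figure D4:**
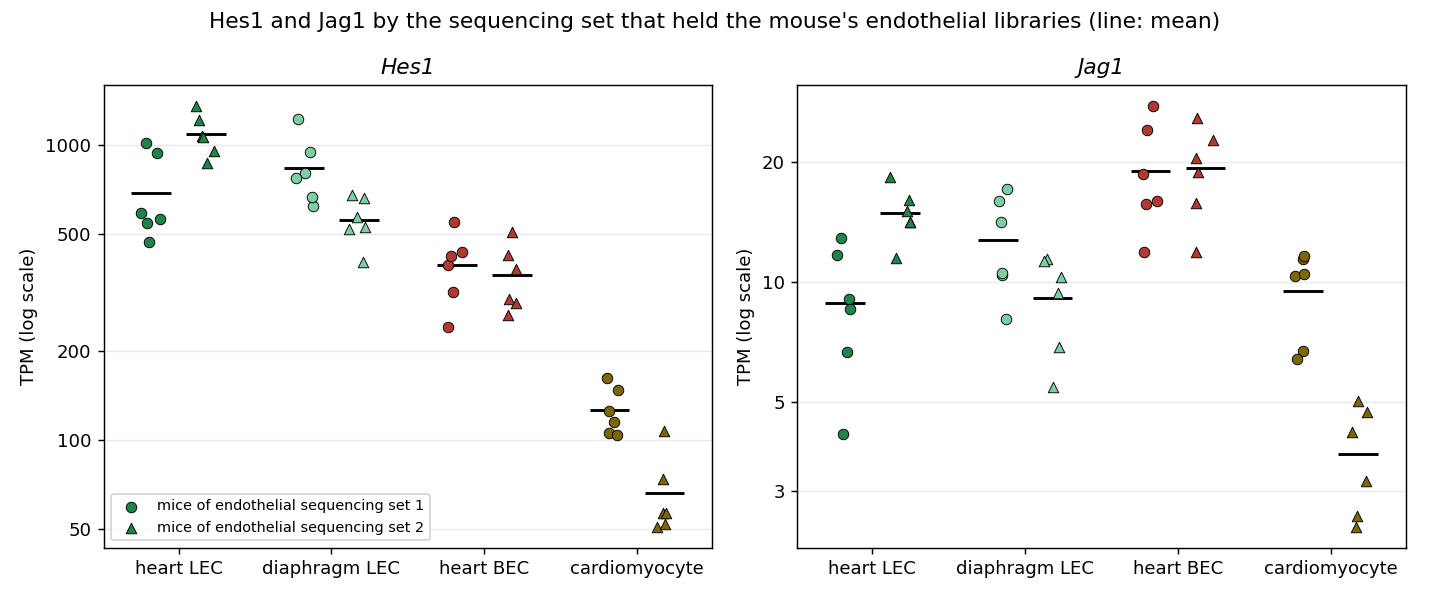
TPM of Hes1 (left) and Jag1 (right) on logarithmic axes in each library, with circles for mice whose endothelial libraries were in batch 1, triangles for batch 2 and lines for the means of 6. Heart LECs are higher in batch 2 (Hes1 1086 against 686 TPM), while diaphragm LECs (558 against 838 TPM) and cardiomyocytes (66.1 against 126 TPM) are lower.

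The cardiomyocyte libraries had lower levels of most members than either endothelial population of the heart. Many of all genes tested were lower as well. Against heart BECs 0 members were called higher and 8 lower, with a background of 7.36% of 30275 genes higher and 42.1% lower, and the median of all genes tested was -0.44. With quantile normalization the median was -0.10, and the calls over all genes moved from 2228 higher and 12757 lower to 4433 higher and 5404 lower, while 8 members were again called. Notch1 was at 8.33 ± 1.93 TPM in cardiomyocytes (SD, n = 12), 8.28-fold below heart BECs, with a log2 difference of -2.93 (SE 0.14, adjusted p = 4.71e-18 in limma). Dll4 gave -2.77 (SE 0.12, adjusted p = 2.51e-19), and Notch4, Dll1, Jag2, Hey1, Hes1 and Jag1 lay between -2.82 and -1.53. For these 8 genes the ranges of the 12 cardiomyocyte and 12 heart BEC libraries did not overlap. The share of all genes without such overlap was not counted. Notch2 (-0.05, 95% interval -0.47 to 0.37) and Notch3 (0.06, 95% interval -0.50 to 0.62) were not called. The markers of all endothelium (Pecam1, Cdh5, Tie1 and Kdr) summed to 263 to 495 TPM in cardiomyocyte and to 1717 to 3075 TPM in heart BEC libraries, with all 4 at 1 TPM or more in each. The part of endothelial cells in the members' levels in cardiomyocyte libraries was not tested, and the cell type, the isolation and the sequencing set cannot be told apart here.

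Against heart LECs, 1 member was higher and 7 were lower, with a background of 7.72% higher and 58.8% lower and a median of all genes of -0.61. Without quantile normalization the share of members that were lower was thus near that of all genes. With it the calls over all 30275 genes moved from 2336 higher and 17801 lower to 5067 higher and 6354 lower. Notch1, Dll1, Dll4, Hey1 and Hes1 were then still called lower. Notch3 was the member called higher, at 7.07 ± 2.61 TPM against 1.86 ± 2.10 TPM (SD, n = 12 each), in 11 of 12 mice, with a log2 difference of 1.80 (SE 0.28, adjusted p = 1.20e-06 in limma). The 10 pericyte and smooth muscle markers summed to 1302 to 2717 TPM in cardiomyocyte libraries and to 49.97 to 946 TPM in heart LECs, and their part was not tested. Hes1 was 9.21-fold lower by mean TPM, with a log2 difference of -3.26 (SE 0.20, adjusted p = 1.21e-15 in limma), the largest among the members. Notch4 (-0.02, 95% interval -0.60 to 0.56) and Jag2 (0.08, 95% interval -0.30 to 0.46) were not called. The calls of Notch2 (-0.92, SE 0.21) and Jag1 (-0.88, SE 0.23) were lost with quantile normalization, at -0.13 (adjusted p = 0.70) and -0.09 (adjusted p = 0.81), while Jag2 was then called at 0.91 (adjusted p = 6.15e-04).

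The treatments were compared within each population, to ask whether infusion of angiotensin II alone or with VEGFCc156s moved the pathway. Libraries of different treatments come from different mice, and the contrasts of a population share their groups. In limma 0 of the 10 members had an adjusted p under 0.05 in any of the 12 contrasts, and all 10 were tested in each. Few genes of any kind were called: 0.0261% of 26803 genes for angII against ctrl in heart LECs, 0.0892% and 0.663% of 15691 genes for angII and for angII+VEGFC against ctrl in cardiomyocytes, and 0% in the other 9 contrasts. At an unadjusted p under 0.05 in limma, 5 differences of the members passed, namely Jag2 and Dll1 in heart LECs and Notch4 (in 2 contrasts) and Notch1 in heart BECs. Of all genes tested, 1.32% to 15.3% passed that level, depending on the contrast.

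In heart BECs Notch4 was at 44.3, 54.7, 60.1 and 60.7 TPM in the ctrl group, at 69.0, 71.5, 75.8, 92.1 and 125 TPM in the angII group and at 52.5, 83.0 and 84.3 TPM in the angII+VEGFC group. The ctrl and angII groups did not overlap, which held for 1.88% of the 21281 genes tested. In every other treatment contrast, of this or another population, 0 members lacked overlap. The share of all genes without overlap in those contrasts was 1.68% to 14.0%. The log2 difference of angII and ctrl was 0.57 (SE 0.17, unadjusted p = 0.0062, adjusted p = 0.76 in limma), with 0.73 in batch 1 and 0.44 in batch 2. In the same libraries the 10 pericyte and smooth muscle markers summed to 190 to 353 TPM in the angII and 354 to 461 TPM in the ctrl group, without overlap. The 4 markers of all endothelium summed to 2273 to 3075 TPM and 1717 to 2562 TPM, the 7 arterial markers to 1351 to 2244 TPM and 1185 to 1465 TPM, and the 7 blood endothelial markers to 20142 to 26913 TPM and 16513 to 23304 TPM. Their part in the levels of Notch4 was not tested. The log2 difference of angII+VEGFC and ctrl was 0.46 (SE 0.20, adjusted p = 0.88 in limma). Notch1 was at 44.5, 47.6, 73.1 and 81.0 TPM in the ctrl group and between 59.0 and 83.0 TPM in the angII group, so the groups overlapped, with a log2 difference of 0.34 (SE 0.15, adjusted p = 0.91 in limma). The 2 low ctrl values of Notch1 were those of batch 1. Of the members, 2 passed the unadjusted level for angII against ctrl in heart BECs and 1 for angII+VEGFC against ctrl, against 5.4% and 5.51% of all genes. For angII+VEGFC against angII 0 passed, against 2.59% of all genes, the smallest p being that of Dll1 (-0.26, SE 0.17, adjusted p = 1.00).

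In heart LECs Jag2 was at 3.85, 4.39, 4.97 and 12.8 TPM in the ctrl group, at 10.9, 11.6, 15.3, 19.1 and 20.2 TPM in the angII group and at 4.83, 8.35 and 19.2 TPM in the angII+VEGFC group. The angII libraries were above 3 of the 4 ctrl libraries. The log2 difference was 1.11 (SE 0.43, unadjusted p = 0.021, adjusted p = 0.37 in limma), 0.84 in batch 1 and 1.32 in batch 2, and 1.27 (adjusted p = 0.56) without mice 14 and 15. The angII heart LEC libraries also had more genes at 1 TPM or more (19957 to 25896, against 16131 to 24086 in the ctrl group) and higher blood endothelial marker sums (3756 to 10069 TPM, against 1985 to 3867 TPM), and their part was not tested. Dll1 was at 37.6, 54.8, 56.4 and 64.9 TPM in the ctrl group, at 23.8 to 52.1 TPM in the angII group and at 24.2, 33.1 and 50.3 TPM in the angII+VEGFC group. The difference of angII+VEGFC and ctrl was -0.72 (SE 0.32, unadjusted p = 0.038, adjusted p = 0.91 in limma), with overlapping groups. In heart LECs 1 member passed the unadjusted level for angII against ctrl, 0 for angII+VEGFC against angII and 1 for angII+VEGFC against ctrl, against 10.9%, 10.8% and 4.94% of all genes. The smallest p of angII+VEGFC against angII was that of Dll4 (-0.42, SE 0.25, adjusted p = 0.54 in limma).

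In diaphragm LECs 0 members passed the unadjusted level in any contrast, against 15.3% of 23839 genes for angII against ctrl, 8.78% for angII+VEGFC against angII and 1.32% for angII+VEGFC against ctrl. The differences with the smallest p were 0.80 for Notch4 (SE 0.51), 0.55 for Dll1 (SE 0.30) and 0.42 for Dll1 (SE 0.31), in that order, and the members ranged from -0.64 to 0.80 over the 3 contrasts. In cardiomyocytes 0 members passed in any contrast, against 9.85%, 2.41% and 12.9% of all genes in the same order. The smallest p-values there were those of Notch2 (-0.40, SE 0.26), Hey1 (-0.43, SE 0.21) and Dll1 (-0.33, SE 0.21), and the members ranged from -0.43 to 0.29. In heart BECs the SE of the log2 difference of the members for angII against ctrl was between 0.13 (Hey1) and 0.39 (Notch3), and in heart LECs between 0.20 (Hes1) and 0.67 (Notch4).

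**Figure D5:**
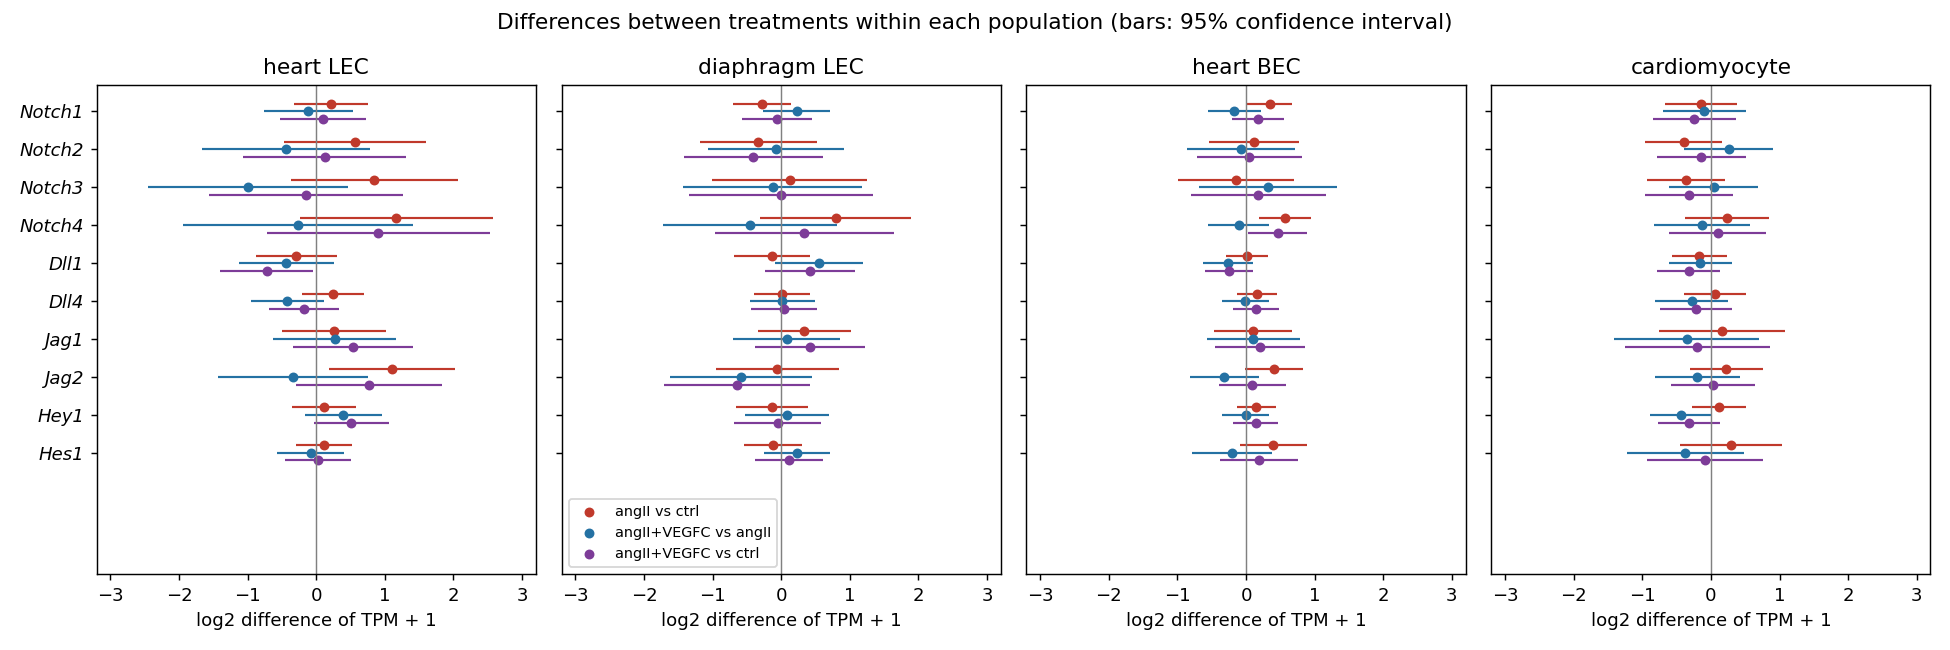
Points are log2 differences of TPM + 1 between treatments within each population, with 95% confidence intervals from limma. The intervals of Notch4 in heart BECs (0.19 to 0.94 for angII against ctrl) and of Jag2 in heart LECs (0.19 to 2.03) lie above 0 without adjustment, and no member had an adjusted p under 0.05.

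Whether a treatment difference itself differed between endothelial populations was tested as an interaction, and 0 members were called in the 6 interactions, with a background of 0.00611% for heart against diaphragm LECs in angII against ctrl and 0% in the other 5. For angII against ctrl, the change of Jag2 was larger in heart than in diaphragm LECs by 1.27 (SE 0.46, unadjusted p = 0.0099, adjusted p = 0.40 in limma), and that of Notch1 was lower in diaphragm LECs than in heart BECs by a log2 difference of -0.63 (SE 0.27, adjusted p = 0.42 in limma). In diaphragm LECs Jag2 was at 3.96 to 11.4 TPM in the ctrl group and at 4.40 to 7.67 TPM in the angII group. For angII+VEGFC against angII, the change of Dll1 differed by -0.85 (SE 0.37, adjusted p = 0.99) between heart and diaphragm LECs and by 0.78 (SE 0.37, adjusted p = 0.71) between diaphragm LECs and heart BECs. Each of these 4 interactions had 1 member at an unadjusted p under 0.05, against 9.7%, 11%, 4.88% and 7% of all genes in the order given, and the heart LEC and heart BEC interactions had 0, against 7.19% for angII against ctrl and 6.43% for angII+VEGFC against angII. In those 2 the smallest p-values were those of Jag2 (0.85, SE 0.46) and Notch3 (-1.42, SE 0.79).

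A list of 45 other genes of the pathway was read from the same fits. Against heart BECs, 7 of 42 tested genes were higher and 9 lower in heart LECs, and 11 were higher and 10 lower in diaphragm LECs. Of all genes tested, 8.94% were higher and 8.64% lower in heart LECs, and 7.54% and 9.01% in diaphragm LECs. The median difference of the 42 genes was -0.10 for heart LECs and -0.21 for diaphragm LECs, against 0.15 and 0.03 for all genes. Dtx1, which encodes a Deltex ubiquitin ligase that modulates Notch, averaged 205 ± 65.1 TPM in heart LECs, 277 ± 71.9 TPM in diaphragm LECs and, by contrast, 2.29 ± 0.897 TPM in heart BECs (SD, n = 12 each), with log2 differences of 6.04 (SE 0.17) and 6.48 (SE 0.17). Mfng, a fringe glycosyltransferase that changes the ligand preference of the receptors, was at 105 ± 17.9 TPM in heart BECs, 17.2 ± 18.5 TPM in heart LECs and 3.01 ± 5.45 TPM in diaphragm LECs (SD, n = 12 each), with differences of -3.52 (SE 0.45) and -5.47 (SE 0.45). Its highest heart LEC values, 56.6 and 52.9 TPM, were those of mice 14 and 15. Nrarp, a target gene whose product limits Notch signalling, was lower in heart LECs by a log2 difference of -2.29 (SE 0.19), and Aph1b, a subunit of gamma-secretase, was higher in diaphragm LECs by 2.91 (SE 0.16). Hence the target genes did not all differ alike, with Hes1 higher and Nrarp lower in heart LECs than in heart BECs.

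Between heart and diaphragm LECs 2 of the 42 were higher and 3 lower, with Mfng at 1.95 (SE 0.45, adjusted p = 0.0062), the target Hey2 at 1.16 (SE 0.26, adjusted p = 0.0038) and the noncanonical ligand Dlk1 at -1.05 (SE 0.30, adjusted p = 0.034 in limma). Dlk1 had a median of 1.98 TPM in diaphragm LECs (0 to 12.3) and of 0.195 TPM in heart LECs (0 to 0.799). Of all genes, 2.67% were called higher and 1.88% lower. In cardiomyocytes 4 of 40 tested genes were higher and 30 lower against heart BECs, with Nrarp (-2.26, SE 0.19), the Notch antagonist Numb (-2.15, SE 0.13) and Mfng (-2.08, SE 0.35) farthest apart, and 4 were higher and 26 lower against heart LECs, with Dtx1 (-6.67, SE 0.17), Aph1b (-3.28, SE 0.15) and the target Heyl (2.98, SE 0.25). Heyl, which is known from vascular smooth muscle, was at 36 ± 9.17 TPM in cardiomyocyte libraries and 5.10 ± 5.12 TPM in heart LECs (SD, n = 12 each), in the order of Notch3. Of all genes tested in cardiomyocytes, 42.1% were lower against heart BECs and 58.8% against heart LECs. Without quantile normalization, the share of the 40 genes that were lower against heart LECs was near the latter. The median difference of the 40 genes was -0.89 against heart BECs and -0.85 against heart LECs, with -0.44 and -0.61 for all genes. In the 12 treatment contrasts and 6 interactions 0 of the other pathway genes were called.

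The 3 genes that correlated best with each member over the 48 libraries, by Pearson's r on log2(TPM + 1), were sought among 10599 genes. These were genes outside the members that passed a floor on mean TPM. These correlations describe the pattern over libraries that share populations, mice and sets. Notch3 was nearest to Atp1b2 (r = 0.94), Abcc9 (0.91) and Higd1b (0.90), of which Abcc9 and Higd1b are in the pericyte and smooth muscle list. Notch4 was nearest to Sez6l2, Ctnnbip1 and Nck2 (0.93 each), Jag2 to Cyth1 (0.95), Myo1e (0.94) and Tspan7 (0.94), and Dll1 to Shank3 (0.93), Tek (0.93), the angiopoietin receptor, and Fmo1 (0.93). Dll4 was nearest to Gimap6, Prkd2 and Dennd3 (0.97 each), and Notch1 to Sptbn1, Card10 and Tns2 (0.98 each). Hes1 was nearest to Prrt4 (0.96), Ppp3ca (0.96) and Dusp2 (0.96), Hey1 to Tmpo (0.95), Sf3b2 (0.95) and H3f3a (0.94), and Jag1 to Cables2 (0.94), Ncor1 (0.93) and Ccm2l (0.92). Notch2 had the lowest correlations, with Frmd6 (0.80), Zfp521 (0.80) and Met (0.79).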

How the data were processed

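RNA of sorted endothelial cells and pelleted cardiomyocytes was amplified with an ultra low input kit and made into libraries by tagmentation. The authors aligned the reads to GRCm38 with STAR 2.5.3a, quantified Ensembl genes with Salmon 0.12.0 in alignment mode and deposited one matrix of TPM values, 54752 genes in 48 libraries. TPM totals are fixed, so depth is unknown and no count test was used.

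Groups, mouse numbers, ages and batches came from the labels. The ages there are in months, whereas the methods of the study give weeks. Genes that reached 1 TPM in 3 libraries of a fit were kept, and limma 3.58.1 (R 4.3.3, variance trend) was run on log2(TPM + 1), with Benjamini-Hochberg adjustment over all genes kept and a threshold of 0.05. Treatments were compared within each population, with age and, for endothelial cells, batch as covariates. Populations and interactions were compared over 36 endothelial libraries (age, batch) or 36 heart libraries (age). The mouse number marks libraries of 1 animal, so the mouse was a block in an alternative. Deviations from the group means, in libraries of different populations, correlated at 0.036 on average over 69 pairs of the same mouse. Over 231 pairs of different mice of the same treatment the average was -0.010. The deviations within a group sum to 0, so the average of different mice is tied to that of the same mouse. No library lay beyond 3 SD on the first 2 principal components, and 0 were removed.

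All members were named, with other pathway genes by size among those called. Leaving out mice 14 and 15, and the batch of the mouse as a covariate for cardiomyocytes, were alternatives added after the data were seen. The members and lists were chosen with earlier results of these data known. Promoter windows and their sequences are from RefSeq. The code was tested on simulated data. Figures were drawn with matplotlib 3.10.9 in Python 3.11.15.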

Additional observations from a re-analysis of the deposited data

Results flagged for a closer look

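The 4 ctrl and the 5 angII libraries of each member and population, 80 groups in all, were searched for a library set apart from its group on the log2 scale, and 2 were found, both in the diaphragm LECs of mouse 9. Chance sets apart about 1 in 20 groups, or 4 of 80. In the ctrl group, Notch3 of mouse 9 was at 4.23 TPM, with the other 3 libraries between 0.0483 and 0.278 TPM. The 10 pericyte and smooth muscle markers summed to 739 TPM there, with a median of 83.9 TPM over the 4 ctrl libraries and a lowest sum of 62.1 TPM. Notch2 of the same library was at 4.79 TPM, with the other 3 between 8.56 and 9.38 TPM. No treatment difference of a member had an adjusted p under 0.05 for differing between endothelial populations, and none went in opposite directions in every library of 2 populations.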

How the results depend on the processing

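Over the named members, 521 of 570 values under the alternatives other than leaving out a library kept their direction and their side of the threshold, 31 lost a call, 4 gained one and 14 changed sign. Uncalled values that stayed uncalled with their sign are among those kept. Only values called in the full fit could lose a call, so the total is no rate of loss for the calls. Of the members called for heart LECs against heart BECs, 9 with all libraries, 4 were called in batch 1 alone and 5 in the ctrl group alone. For diaphragm LECs against heart BECs 8 became 4 in batch 1, and for heart against diaphragm LECs 3 became 0 in batch 1 and 0 in the ctrl group alone, fits with fewer libraries. With the mouse as a replicate block 9 members were called for diaphragm LECs against heart BECs, Notch1 being added (-0.27, adjusted p = 0.039 in limma), and no other call changed.

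The values that changed sign were uncalled in the full fit, except Jag2 of heart against diaphragm LECs, which was called there and was at -0.024 in the ctrl group alone. In batch 1 Hes1 (-0.21), Jag1 (-0.52) and Notch2 (0.32) did so between heart and diaphragm LECs, and in batch 2 Hey1 of heart LECs against heart BECs (-0.0081) and Dll1 of heart BECs for angII+VEGFC against angII (0.022). Quantile normalization did so for Jag1 between heart and diaphragm LECs (-0.059), Notch2 of cardiomyocytes against heart BECs (0.39) and Notch4 of cardiomyocytes against heart LECs (0.76). The ctrl group alone gave 0.18 and 0.55 for the last 2, a pseudocount of 0.1 TPM gave 0.041 for Notch4 there, and a covariate for how many genes reached 1 TPM gave -0.055 for Notch3 of cardiomyocytes against heart BECs and -0.36 for Jag2 of cardiomyocytes against heart LECs. With this covariate Notch1 (-0.32, adjusted p = 0.13) and Jag1 (-0.55, adjusted p = 0.12) were not called for heart LECs against heart BECs. The cause was not tested.

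With each library left out in turn, 1476 of 1500 values kept direction and call, 5 lost a call, 1 gained one and 18 changed sign. Values uncalled in both fits are again among those kept. The members called then numbered 8 to 9 for each LEC population against heart BECs, 2 to 3 between the LECs, 8 in both cardiomyocyte comparisons and 0 in the treatment contrasts and interactions. Values that changed sign ranged from -0.0027 to 0.70 for Dll1 of diaphragm LECs (angII+VEGFC against ctrl), from -0.15 to 0.087 and from -0.075 to 0.24 for Notch2 and Notch3 of cardiomyocytes against heart BECs, and from -0.042 to 0.22 and from -0.17 to 0.12 for Jag2 and Notch4 of cardiomyocytes against heart LECs. Depth is unknown, so no counting error could be given.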

Other observations

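Efnb2, the arterial ephrin ligand, is no member of the pathway lists and was looked at after the values of Hes1 and Jag1 by batch were seen. In heart LECs it ranged from 14.4 to 51.7 TPM in batch 1 and from 61.1 to 130 TPM in batch 2 (6 libraries each). In cardiomyocytes, which were sequenced in another set, it ranged from 7.78 to 16.0 TPM in the mice of batch 1 and from 2.43 to 5.95 TPM in the mice of batch 2. Neither pair of ranges overlapped, and their directions were opposite. In heart BECs the ranges were 29.9 to 99.9 TPM and 31.7 to 73.1 TPM, and in diaphragm LECs 25.8 to 83.9 TPM and 20.3 to 47.7 TPM, and both overlapped. No test was made of this split, and how many of all genes split by batch in this way was not counted.

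The dissociation response genes (Fos, Fosb, Jun, Junb, Egr1, Atf3, Dusp1 and Hspa1a) summed to 22550 to 37067 TPM over the 3 endothelial populations and to 7453 to 11369 TPM in cardiomyocytes. The part of the isolation in the levels of Hes1 and the other members was not tested.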
